A study of Mus musculus with 14 samples.

Results

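The genes described are the hexokinases Hk1, Hk2 and Hk3, the glycolytic enzymes Aldoa, Aldoc, Gapdh, Pgk1 and Ldha, and the hypoxia-induced collagen prolyl hydroxylase P4ha1. All probes annotated to these 9 symbols were taken, and 13 of the 45281 probes on the array belonged to 8 of them. Hk2 had no probe in the probe annotation and was not analysed here. Hk3, Aldoa, Ldha and Gapdh had 1 probe each, and the other genes had 2 or 3, of which the brightest over all arrays is given unless another is named.

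Glycolysis splits glucose into pyruvate in the cytosol. Hexokinases trap glucose as glucose 6-phosphate, aldolases cleave fructose 1,6-bisphosphate, Gapdh and Pgk1 carry out the next oxidation and the first ATP-yielding step, and Ldha reduces pyruvate to lactate. When oxygen is scarce the transcription factor HIF-1 is stabilized and binds a short core motif near many of these genes and near P4ha1, which encodes the catalytic subunit of the enzyme that hydroxylates prolines in newly made collagen. Myeloid cells are known to draw strongly on glycolysis, and Hk3 is the hexokinase typical of myeloid cells.

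The 6 groups were CD11b+GFP+ myeloid cells from intracranial PyMT tumors (4 arrays) and EO771 tumors (2 arrays), which serve as models of breast cancer brain metastases (BrM), from spleens (3 arrays, fewer than the methods name) and bone marrow (1 array) of PyMT tumor-bearing mice, and from spleens (2 arrays) and bone marrow (2 arrays) of naïve mice without a tumor. All labels gave C57Bl/6J mice of 14 weeks, and tumors had grown for 2 weeks. The tumor-bearing mice were irradiated chimeras whose marrow came from animals with GFP under the ubiquitin C promoter. The sorted cells were thus blood-derived progeny rather than resident microglia, and any host myeloid cells without GFP were left out. Cancer cells were placed in the brain by injection, so the tumors are implants. Viable spleen and marrow cells could not be obtained from EO771 mice, and naïve mice stood in for them. The code of 1 EO771 BrM array held 2 numbers, both naïve bone marrow codes shared a stem, and naïve spleen 1 carried the same number, so pooling or a shared animal cannot be told apart from independent mice there. PyMT bone marrow, PyMT BrM 3 and PyMT spleen 1 carried the code of 1 mouse. P-values therefore measure the spread between these arrays.

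Signals are deposited log2 values with a common median of 4.06 on every array. A gene was called when the adjusted p of limma fell under 0.01 over all 45281 probes. One array stood apart from its label before any comparison. The array labelled PyMT spleen 2 correlated with the 3 bone marrow arrays at r of 0.958 to 0.970, against 0.882 to 0.896 with the other spleen arrays, which correlated with each other at 0.937 to 0.983 (22640 probes above the median). The member results that lead each comparison are given with and without it. Itgam, which encodes CD11b, was between 7.29 and 7.94 on the BrM arrays and between 5.74 and 8.87 on the spleen and bone marrow arrays. Of 15 neutrophil genes, 14 were called lower in BrM, against 3.12% of all probes (also 14 without PyMT spleen 2, against 2.88%). Their mean log2 level was 6.54 to 9.07 in BrM and 11.21 to 12.65 in spleen and bone marrow. Of 11 macrophage genes, 6 were called higher, against 3.8% of all probes, or 3 without PyMT spleen 2, against 3.5%. Their mean levels were 10.75 to 11.47 in BrM and 8.48 to 10.72 elsewhere. In sorted bulk RNA, fewer cells of a type and less RNA per cell cannot be told apart.

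Promoter sequences are shown for P4ha1 and Aldoc, the genes that were called higher in BrM, for Hk3, which was called lower against bone marrow, and for Pgk1 and Ldha, whose leading probes were not called. Each run is the 250 bases before the start listed by RefSeq in GRCm38.p6, written in the direction of transcription, and capitals mark the HIF core ACGTG or GCGTG on either strand (CACGT and CACGC on the opposite one). All 9 genes matched the promoter table. The P4ha1 run is chr10:59323046-59323295 on the plus strand, the Aldoc run (the first of 2 listed starts) chr11:78322823-78323072 on the plus strand, the Hk3 run chr13:55021386-55021635 on the minus strand, the Pgk1 run chrX:106186850-106187099 on the plus strand, and the Ldha run (the first of 2 listed starts) chr7:46845554-46845803 on the plus strand.
P4ha1: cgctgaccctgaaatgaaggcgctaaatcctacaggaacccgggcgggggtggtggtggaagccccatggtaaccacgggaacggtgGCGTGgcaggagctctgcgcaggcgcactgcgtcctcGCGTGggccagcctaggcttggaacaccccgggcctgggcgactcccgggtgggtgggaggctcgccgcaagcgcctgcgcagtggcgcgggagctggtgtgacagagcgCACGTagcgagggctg
Aldoc: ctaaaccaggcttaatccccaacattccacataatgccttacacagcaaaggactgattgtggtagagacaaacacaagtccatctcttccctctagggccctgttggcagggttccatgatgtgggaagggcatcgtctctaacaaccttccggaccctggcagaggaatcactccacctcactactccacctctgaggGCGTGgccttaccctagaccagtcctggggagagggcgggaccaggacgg
Hk3: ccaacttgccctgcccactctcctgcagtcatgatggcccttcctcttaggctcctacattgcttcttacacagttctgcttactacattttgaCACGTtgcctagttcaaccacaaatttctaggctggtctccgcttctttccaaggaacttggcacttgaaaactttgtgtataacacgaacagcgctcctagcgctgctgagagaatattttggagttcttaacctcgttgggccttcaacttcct
Pgk1: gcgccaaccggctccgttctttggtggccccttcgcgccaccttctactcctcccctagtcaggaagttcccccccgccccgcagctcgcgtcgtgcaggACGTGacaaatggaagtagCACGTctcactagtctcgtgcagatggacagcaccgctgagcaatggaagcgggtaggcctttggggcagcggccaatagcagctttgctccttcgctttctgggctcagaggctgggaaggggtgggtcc
Ldha: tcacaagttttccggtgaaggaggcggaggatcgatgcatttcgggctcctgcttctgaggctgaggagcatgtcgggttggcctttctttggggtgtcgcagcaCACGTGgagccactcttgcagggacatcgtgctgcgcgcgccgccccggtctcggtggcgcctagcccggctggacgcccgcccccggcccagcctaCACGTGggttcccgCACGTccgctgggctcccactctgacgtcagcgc

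P4ha1 carried GCGTG beginning 163 and 126 bases before the start and CACGT beginning 16 bases before it. Ldha carried 5 matches of ACGTG, of which 4 were both strands of 2 palindromic CACGTG words, and no GCGTG. Pgk1 had 2 matches of ACGTG, Hk3 had 1 of ACGTG and Aldoc had 1 of GCGTG. At least 1 match was found before 12 of the 14 starts listed for the 9 genes. The windows of Aldoa starts 2 and 3 overlap, and the same CACGT was counted in each. ACGTG was present in 16.6% of all 32851 promoter windows of this length, GCGTG in 28.2% and either in 38.6%. These windows were not matched to those of the members for GC content. A match is a string of letters in this window and was not tested as a binding site.

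By its brighter probe, P4ha1 was higher in BrM-infiltrating myeloid cells than in spleen and bone marrow cells in both tumor models. The brighter P4ha1 probe read 7.56, 6.49, 7.19 and 7.45 in PyMT BrM and 7.02 and 7.15 in EO771 BrM. It read 5.12, 5.72 and 5.55 in PyMT spleens, 5.60 in PyMT bone marrow, 5.10 and 5.78 in naïve spleens and 5.18 and 5.01 in naïve bone marrow. All 6 BrM arrays lay above all 8 others. The mean was 7.14 ± 0.37 in BrM and 5.38 ± 0.31 in spleen and bone marrow (SD, n = 6 and 8), a log2 difference of 1.76 (SE 0.20, adjusted p = 2.16e-05 by limma) or 3.38-fold. The exact two-sided permutation test gave p = 0.000333, the smallest that 6 against 8 arrays allow. Without PyMT spleen 2 the difference was 1.81 (adjusted p = 3.95e-05).

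The order of P4ha1 means was PyMT BrM (7.17), EO771 BrM (7.08), PyMT bone marrow (5.60), PyMT spleen (5.46), naïve spleen (5.44) and naïve bone marrow (5.10). Only EO771 BrM and PyMT bone marrow, as neighbours in this order, had values that did not overlap. Within the PyMT model P4ha1 rose by 1.67 over the PyMT spleens and marrow (SE 0.26, adjusted p = 0.00102) and by 1.75 without PyMT spleen 2 (adjusted p = 0.00213), and within the EO771 model it rose by 1.81 over the naïve tissues (SE 0.32, adjusted p = 0.00296). The EO771 call was lost without EO771 BrM 1 (adjusted p = 0.0382), EO771 BrM 2 (0.0485) or naïve bone marrow 2 (0.0101), and the PyMT call when both probes were averaged (1.21, adjusted p = 0.0194). The comparisons share no arrays, and their difference was -0.14 (SE 0.41, adjusted p = 0.962 by limma).

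A second P4ha1 probe, annotated to the RefSeq transcript where the brighter one is annotated to a cDNA clone, gave smaller contrasts. Its signals were 6.89, 5.78, 5.95 and 6.38 in PyMT BrM, 6.89 and 6.56 in EO771 BrM, 5.11, 5.26 and 6.07 in PyMT spleens, 5.58 in PyMT bone marrow, 5.44 and 6.07 in naïve spleens, and 4.48 and 4.18 in naïve bone marrow. Here PyMT BrM 2 and 3 lay below the highest spleen arrays, so the PyMT model overlapped its own controls. Both EO771 BrM arrays lay above all naïve arrays. The log2 difference of BrM from spleen and bone marrow was 1.14 (SE 0.31, adjusted p = 0.0209) and was not called. Against naïve bone marrow, EO771 BrM was higher on both probes, by 1.99 on the brighter (SE 0.38, adjusted p = 0.00611) and 2.40 on the second (SE 0.42, adjusted p = 0.00406). The call on the brighter probe was lost when any of 5 single arrays was left out, when arrays were centred on reference genes (adjusted p = 0.0123) and when the naïve bone marrow arrays were averaged (0.0518).

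**Figure D1:**
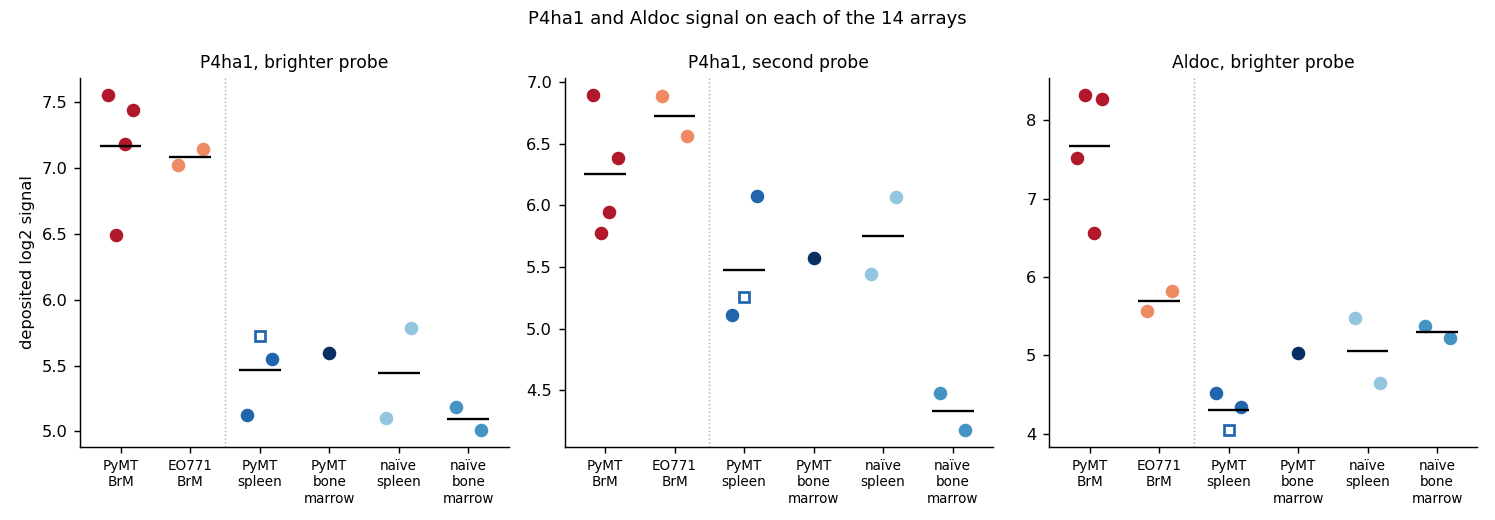
Deposited log2 signal (vertical axis) of both P4ha1 probes and the brighter Aldoc probe on each array, by group; points are arrays, bars are means of groups with over 1 array, and the open square is PyMT spleen 2. All 6 BrM arrays lie above the other 8 for the brighter P4ha1 probe and for Aldoc, while the second P4ha1 probe overlaps between 5.78 and 6.07.

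Aldoc, the aldolase isoform best known from brain, was high in PyMT BrM. Its brighter probe read 7.52, 8.32, 6.56 and 8.27 in PyMT BrM, against 4.52, 4.05 and 4.34 in PyMT spleens and 5.04 in PyMT bone marrow. EO771 BrM read 5.57 and 5.83, against 5.48 and 4.64 in naïve spleens and 5.37 and 5.22 in naïve bone marrow. Both EO771 arrays were above all naïve arrays. In the PyMT model the difference was 3.18 (SE 0.36, adjusted p = 8.98e-05), or 9.08-fold (3.04 without PyMT spleen 2, adjusted p = 0.000465), and in the EO771 model 0.52 (SE 0.44, adjusted p = 0.661). The difference between the models was 2.66 (SE 0.57) and was not called over all probes (adjusted p = 0.0805), and PyMT BrM exceeded EO771 BrM by 1.97 (SE 0.44, adjusted p = 0.0235), also not called. That Aldoc difference was called without PyMT BrM 3 (2.34, adjusted p = 0.00487) and with array weights (2.06, adjusted p = 0.00391). Over both models the BrM arrays averaged 7.01 ± 1.20 and the spleen and bone marrow arrays 4.83 ± 0.52 (SD, n = 6 and 8), a difference of 2.18 (SE 0.42, adjusted p = 0.00237) that remained called without PyMT spleen 2 (2.07, adjusted p = 0.00522). The exact permutation p was again 0.000333. The second Aldoc probe was dim, at 2.29 to 3.28 in BrM and 1.40 to 3.34 elsewhere, below the array median throughout.

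Aldoc is also a marker of astrocytes, and markers of other cells were read on the same arrays. Of 9 astrocyte genes, 2 were called higher in BrM (Gja1 and Sox9), against 3.8% of all probes. The mean log2 level of the list was 5.20 to 5.96 in PyMT BrM and 5.08 to 5.09 in EO771 BrM, against 4.31 to 5.32 in spleen and bone marrow. Gfap read 4.27, 6.58, 5.75 and 6.71 in PyMT BrM, 4.55 and 4.86 in EO771 BrM and 3.45 to 5.02 in spleen and bone marrow. Aqp4 and Slc1a2 were at 5.30 or less on all arrays. Slc1a3 differed by -2.61 (adjusted p = 0.0258) and Fgfr3 by -0.62 (adjusted p = 0.0283) from spleen and bone marrow, neither of them called. S100b and Aldh1l1 differed by 0.04 and 0.50. Of 11 epithelial genes, 2 were called higher (Krt8 and Cdh1), against 3.8% of all probes, or 4 in the PyMT model, against 2.92%. The epithelial list averaged 4.82 to 5.50 in PyMT BrM, at most 4.21 in EO771 BrM and 3.76 to 4.35 in spleen and bone marrow. Krt8 was at 6.20 to 8.50 in PyMT BrM, 7.34 to 7.65 in EO771 BrM and 3.77 to 5.10 in spleen and bone marrow. Krt18 was at 5.44 to 7.35 in PyMT BrM, 3.66 to 3.93 in EO771 BrM and 2.50 to 4.51 in spleen and bone marrow. Epcam was at 2.53 to 3.12 in BrM and at 2.41 to 3.36 on the spleen and bone marrow arrays. The part of astrocyte or carcinoma RNA in the Aldoc difference was not tested.

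P4ha1 and Aldoc were the called members in the pooled comparison, 2 of 8 measured genes by their leading probes, both higher. Over the whole array 3.8% of probes were called higher and 3.12% lower, and 3.26% had all BrM arrays above all others. Of the called probes 54.9% were higher, and 43.1% were once each array was centred on reference genes, which moved the median of all probes to -0.13. Without PyMT spleen 2 the same 2 genes were called, against 3.5% of probes. In the PyMT model 2 members were called higher against 2.92% of probes, and in the EO771 model 1 against 1.98%. No member was called in the difference between the models (0.13% of probes were, in either direction). At an unadjusted p under 0.05, 1 member and 8.9% of probes passed there. Between PyMT BrM and EO771 BrM 0 members were called against 1.59% of probes, and 1 member against 20.4% of probes passed an unadjusted p under 0.05. With PyMT spleen 2 left out of that fit, 0 members were called against 3.6%, and 3 against 24.5% passed the unadjusted p. The median log2 difference over the 8 members was 0.35, and over all probes it was -0.01.

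Gapdh, Ldha and Aldoa were lowest in 4 of the 5 spleens and overlapped between BrM and bone marrow. Gapdh, also in wide use as a loading control, read 12.65, 12.55, 12.46 and 12.67 in PyMT BrM and 12.83 and 12.20 in EO771 BrM. It read 11.44, 12.57 and 11.66 in PyMT spleens, 12.26 in PyMT bone marrow, 11.54 and 11.05 in naïve spleens and 12.33 and 12.43 in naïve bone marrow. The 4 spleen arrays other than PyMT spleen 2 were the lowest of all, and PyMT spleen 2 stood with the bone marrow arrays. Against both tissues together the difference was 0.65 (SE 0.24, adjusted p = 0.0982; exact permutation p = 0.0196) and was not called. Against the 5 spleens it was 0.91 (adjusted p = 0.0443), and without PyMT spleen 2 it was 1.14 (SE 0.20, adjusted p = 0.0031), 2.20-fold, and called. Against the 3 bone marrow arrays it was 0.22 (SE 0.19, adjusted p = 0.549). The B cell list averaged 7.96 to 8.48 in the 4 spleens other than PyMT spleen 2. It was at 5.86 in PyMT spleen 2, 5.81 to 6.70 in bone marrow and 3.71 to 4.57 in BrM. The part of B cell content in the low spleen values of Gapdh, Ldha and Aldoa was not tested.

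Ldha had the same layout near the top of the signal range. Its values were 12.64, 12.76, 12.37 and 12.68 in PyMT BrM and 12.58 and 12.22 in EO771 BrM, against 11.86, 12.80 and 11.69 in PyMT spleens, 12.69 in PyMT bone marrow, 11.83 and 11.49 in naïve spleens and 12.63 and 12.50 in naïve bone marrow. All BrM arrays exceeded the 4 spleen arrays other than PyMT spleen 2. The difference was 0.36 (SE 0.23, adjusted p = 0.41) against both tissues, 0.83 (SE 0.19, adjusted p = 0.0139) against those 4 spleens and -0.06 (SE 0.19, adjusted p = 0.89) against bone marrow.

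Aldoa, the aldolase of muscle and most other tissues, read 11.10, 11.14, 10.79 and 11.21 in PyMT BrM, 11.64 and 10.83 in EO771 BrM, 10.57, 11.43 and 10.49 in PyMT spleens, 10.97 in PyMT bone marrow, 10.43 and 10.16 in naïve spleens and 11.00 and 11.10 in naïve bone marrow. Its differences were 0.35 (SE 0.22) against both tissues, 0.71 (SE 0.21, adjusted p = 0.0552) against the 4 spleens and 0.09 (SE 0.22) against bone marrow, none of them called. The brightest Pgk1 probe read 10.21, 10.19, 9.25 and 9.71 in PyMT BrM, 10.98 and 10.29 in EO771 BrM, 8.50, 10.57 and 8.84 in PyMT spleens, 10.19 in PyMT bone marrow, 9.61 and 9.27 in naïve spleens and 10.94 and 10.89 in naïve bone marrow. Both EO771 values were above all PyMT BrM values, by 0.79 on average (SE 0.50, adjusted p = 0.419). The Pgk1 difference was 0.25 (SE 0.40) against both tissues, 1.05 (SE 0.33, adjusted p = 0.0686) against the 4 spleens and -0.57 (SE 0.35, adjusted p = 0.372) against bone marrow.

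The Pgk1 probes disagreed. A dimmer one read 4.46, 4.68, 5.11 and 4.62 in PyMT BrM, 3.86 and 3.67 in EO771 BrM, 3.01, 3.63 and 2.69 in PyMT spleens, 4.15 in PyMT bone marrow, 2.12 and 2.42 in naïve spleens and 3.00 and 1.87 in naïve bone marrow. It was called higher in BrM against both tissues (1.54, SE 0.34, adjusted p = 0.00573), although most of its values lay below the array median of 4.06. The dimmest Pgk1 probe read 1.45 to 3.35 in BrM and 2.27 to 3.66 elsewhere. Mouse carries processed copies of several glycolytic genes, and cross-hybridization of these probes was not examined.

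Neither measured hexokinase was called in the pooled comparison. Hk3 read 9.05, 10.10, 10.48 and 10.45 in PyMT BrM and 10.32 and 10.14 in EO771 BrM. It read 10.66, 12.23 and 9.75 in PyMT spleens, 11.94 in PyMT bone marrow, 10.18 and 9.53 in naïve spleens and 11.77 and 11.75 in naïve bone marrow. Every BrM array was below every bone marrow array, and the BrM range overlapped that of the spleens. Hk3 differed by -0.89 (SE 0.43, adjusted p = 0.236) from both tissues, by -1.73 (SE 0.31, adjusted p = 0.00339) from bone marrow, where it was called lower, and by 0.06 (SE 0.32) from the 4 spleens other than PyMT spleen 2. The neutrophil list, lower in BrM, averaged 12.55 to 12.65 in bone marrow and 11.21 to 11.70 in these 4 spleens. PyMT spleen 2, with Hk3 at 12.23, was at 12.62. The part of neutrophil content in the Hk3 difference was not tested.

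Hk1, the broadly expressed hexokinase, read 5.23, 5.30, 5.01 and 4.98 in PyMT BrM and 6.31 and 6.00 in EO771 BrM, against 4.83, 6.90 and 3.98 in PyMT spleens, 6.17 in PyMT bone marrow, 5.11 and 4.39 in naïve spleens and 6.28 and 6.33 in naïve bone marrow. EO771 BrM lay with bone marrow, and PyMT BrM lay lower. PyMT BrM differed from EO771 BrM by -1.02 (SE 0.58, adjusted p = 0.366), and by the same amount with SE 0.28 and adjusted p = 0.045 in the fit without PyMT spleen 2. The Hk1 difference was -0.02 (SE 0.43) against both tissues, 0.90 (SE 0.32, adjusted p = 0.113) against the 4 spleens and -0.79 (SE 0.31, adjusted p = 0.143) against bone marrow. The second Hk1 probe, at 3.62 to 4.40 in BrM and 2.32 to 5.07 elsewhere, was not called.

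**Figure D2:**
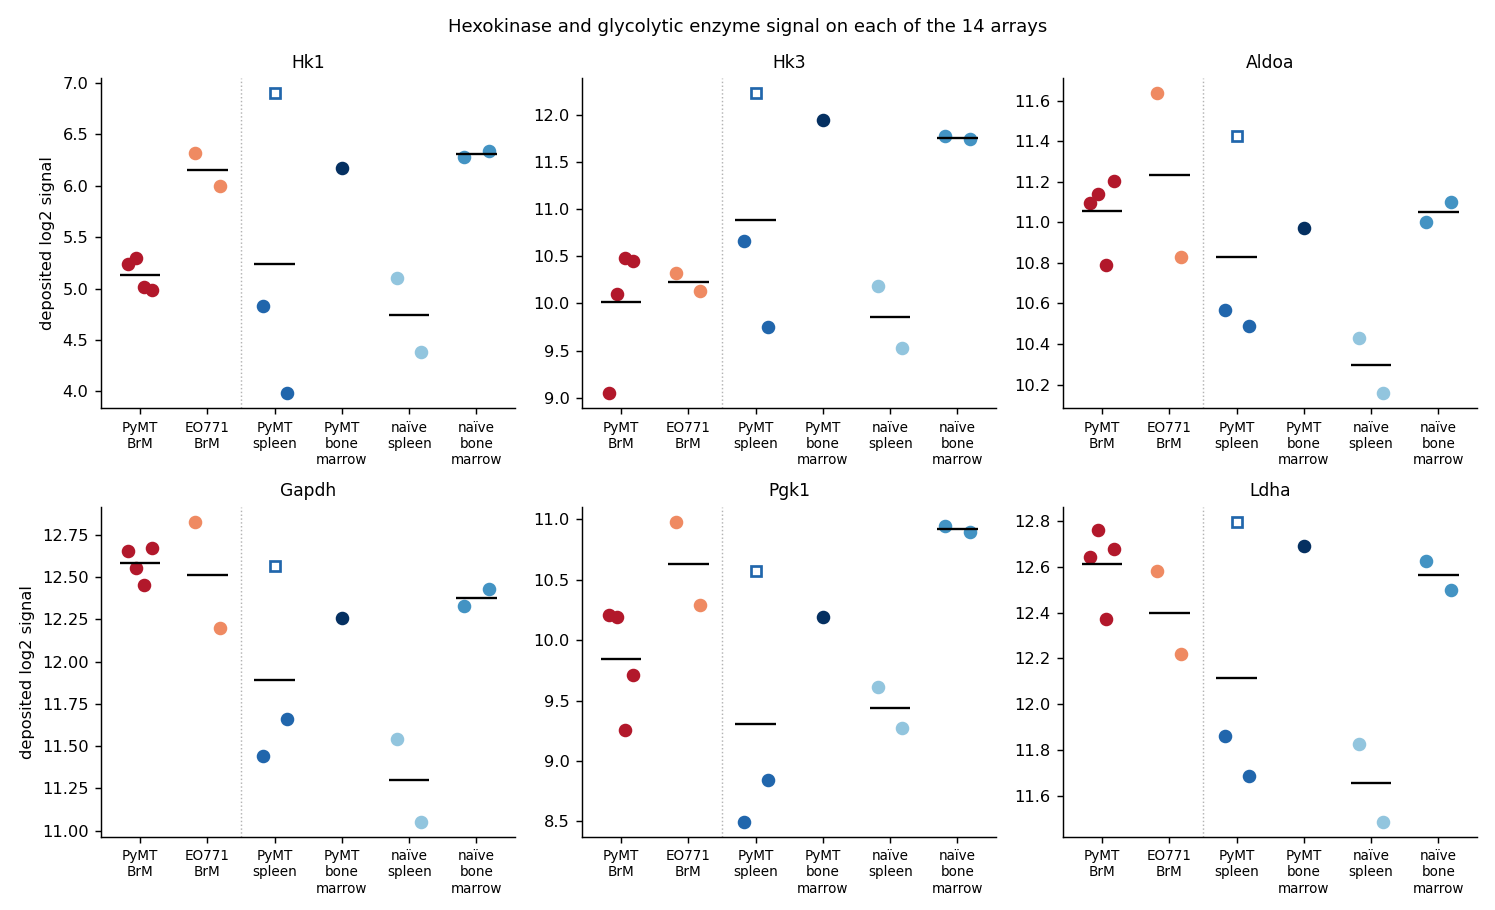
Deposited log2 signal (vertical axis, a separate scale for each gene) of the leading probe of 6 genes on each array, by group; points are arrays, bars are group means and the open square is PyMT spleen 2. For Gapdh, Ldha and Aldoa the 4 other spleen arrays sit lowest. For Hk3 the bone marrow arrays, PyMT spleen 2 and, by less, PyMT spleen 1 sit above all BrM arrays.

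The control tissues were then compared with each other. Naïve spleen minus naïve bone marrow gave -1.90 for Hk3 (SE 0.67), -1.56 for Hk1 (SE 0.68), -1.48 for Pgk1 (SE 0.57), -1.08 for Gapdh (SE 0.37), -0.90 for Ldha (SE 0.35) and -0.76 for Aldoa (SE 0.36). No probe of the array was called (0%) in this fit, and 5 members and 15% of all probes had an unadjusted p under 0.05. With PyMT spleen 2 left out of the fit the values were unchanged, 3.27% of probes were called and still no member was, with adjusted p of 0.0158 for Hk1 as the smallest, and 6 members and 19.2% of probes were at an unadjusted p under 0.05. The codes of naïve spleen 1 and both naïve bone marrow arrays share a number, so these arrays may come from 1 mouse. P4ha1 and Aldoc differed by 0.35 and -0.23. PyMT spleens against naïve spleens gave 0 called members against 0.115% of probes, and 0 members against 19.4% of probes at an unadjusted p under 0.05. Without PyMT spleen 2 the members were also 0, against 0.367% and 22.3% of probes.

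Against spleens alone, 2 members were called higher in BrM (P4ha1 and Aldoc, against 1.98% of probes). Without PyMT spleen 2 the number was also 2, but they were P4ha1 (1.75, SE 0.24, adjusted p = 0.000703) and Gapdh (2.36% of probes), and Aldoc had an adjusted p of 0.0213 with a difference of 2.27. Against bone marrow alone P4ha1 was called higher (1.88, SE 0.26, adjusted p = 0.00073, with 3.71% of probes higher) and Hk3 lower (3.91% of probes lower), while Aldoc differed by 1.80 (SE 0.61, adjusted p = 0.0837). PyMT BrM against PyMT spleens gave P4ha1 (1.71, adjusted p = 0.00285) and Aldoc (3.37, adjusted p = 0.000289) as called, with 2.72% of probes, and the same 2 genes without PyMT spleen 2, with 3.76%. Here the P4ha1 call was lost without PyMT BrM 4 (adjusted p = 0.0105) or PyMT spleen 1 (0.0148). EO771 BrM against naïve spleens gave 0 called members at 1.26% of probes called higher, with P4ha1 at 1.64 (SE 0.38, adjusted p = 0.0267). At an unadjusted p under 0.05, 3 members were higher, against 8.32% of probes. With PyMT spleen 2 left out of the fit, 0 members were called at 2.17% of probes. At the same unadjusted p, 6 members were then higher, against 10.2% of probes. EO771 BrM against naïve bone marrow gave P4ha1, at 2.24%, a call lost without either EO771 BrM array, either naïve bone marrow array or PyMT BrM 3 (adjusted p of 0.0104 to 0.0572). These pairs share BrM arrays with each other.

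**Figure D3:**
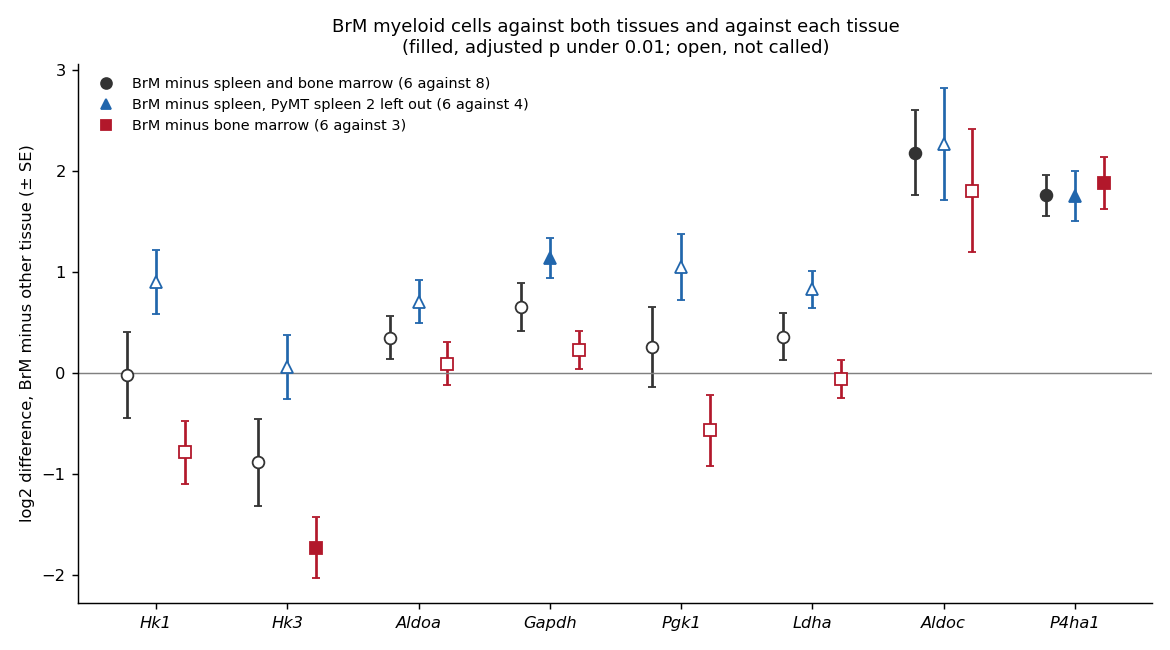
Log2 difference (vertical axis, ± SE) of the leading probe of each gene between the 6 BrM arrays and both tissues, the 4 spleens other than PyMT spleen 2, or the 3 bone marrow arrays; filled symbols were called. P4ha1 lies between 1.75 and 1.88 in all 3 comparisons, while Gapdh is at 1.14 against spleens and 0.22 against bone marrow, and Hk3 at 0.06 and -1.73.

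A few other enzymes of glycolysis were called, in both directions. Of 18 measured, 3 were called higher in BrM, 1 lower and 14 not, with a median difference of 0.12. Over all probes 3.8% were called higher and 3.12% lower. Against spleens alone 2 enzymes were called higher and 1 lower (1.98% and 2.02% of probes). Against bone marrow alone 1 was called higher and 2 lower (3.71% and 3.91% of probes). Pfkp, the platelet type of phosphofructokinase, the committing step, averaged 9.21 in BrM and 7.39 in spleen and bone marrow (1.82, SE 0.21, adjusted p = 2.22e-05). Pfkl, the liver type, differed by 1.10 (SE 0.25, adjusted p = 0.00651), and Tpi1, which interconverts the triose phosphates, by 0.97 (SE 0.22, adjusted p = 0.0068). Adpgk, the ADP-dependent glucokinase, averaged 7.84 in BrM and 11.74 in spleen and bone marrow and fell by 3.90 on the log2 scale (SE 0.54, adjusted p = 0.000126). It averaged 12.98 in bone marrow and 11.00 in spleens, and the part of neutrophil content in the Adpgk difference was not tested. Without PyMT spleen 2, Pfkp and Adpgk stayed called, and Pfkl (adjusted p = 0.0126) and Tpi1 (0.0112) did not. Pkm, which makes pyruvate, differed by -0.10.

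Among 32 HIF regulators and targets, 6 were called higher, 1 lower and 25 not, with a median of 0.27 (3.8% of all probes higher, 3.12% lower). Without PyMT spleen 2 the counts were 5 higher and 1 lower (3.5% and 2.88% of probes). Against spleens alone 2 were called higher (Hif1a and Slc2a1) and 0 lower (1.98% and 2.02% of probes). Without PyMT spleen 2 these counts were 2 and 1 (2.36% and 2.69% of probes). Against bone marrow alone 6 were called higher and 1 lower (3.71% and 3.91% of probes). Hif1a, the oxygen-regulated subunit itself, read 7.32 to 7.91 in PyMT BrM and 8.59 to 8.72 in EO771 BrM, against 4.45 to 6.55 in spleen and bone marrow (2.34, SE 0.34, adjusted p = 0.000182). Mif, a cytokine induced by HIF, differed by 1.65 (adjusted p = 0.0022) and Slc2a1, the glucose transporter GLUT1, by 1.40 (SE 0.20, adjusted p = 0.00015). Hif1an, the asparaginyl hydroxylase that restrains HIF, was lower, at 7.22 in BrM and 8.22 in spleen and bone marrow (SE of the difference 0.18, adjusted p = 0.0011). Car9, Car12 and Plod1 were the other genes called higher, at 1.25, 1.23 and 1.22 (adjusted p = 0.0025, 0.0099 and 0.0022). Without PyMT spleen 2, Car12 was not called (adjusted p = 0.0149). Vegfa, Bnip3, Adm, Ndrg1 and Egln3, which hypoxia is known to induce, were among the 25 not called, at 1.14, -0.14, 0.17, 0.04 and 0.26. Bnip3 averaged 3.28 in BrM and 3.42 elsewhere, below the array median of 4.06, and Adm lay near it (4.14 and 3.97). Vegfa differed by 2.33 in the EO771 model (adjusted p = 0.19) and by 0.75 in the PyMT model (0.606), neither called. Also uncalled were Pdk1 (1.01, adjusted p = 0.0333), Fam162a (0.83, 0.0113) and Bnip3l (-0.87, 0.0145). Fam162a was called higher in the PyMT model (1.23, adjusted p = 0.0022). Beside these values, 10 of 15 early response and heat shock genes that rise during tissue dissociation were called higher, against 3.8% of all probes. Their mean level was 8.20 to 9.87 in BrM and 6.57 to 7.34 elsewhere. The part of dissociation in the HIF genes and P4ha1 was not tested.

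Of 6 other members of the collagen prolyl hydroxylase group, 2 were called higher and 0 lower, also without PyMT spleen 2. Over all probes 3.8% were called higher, or 3.5% without that array. P3h3, a prolyl 3-hydroxylase, differed by 1.40 (SE 0.22, adjusted p = 0.00048) and P4ha2, the sister catalytic subunit of P4ha1, by 0.99 (SE 0.22, adjusted p = 0.00712). Both were called against spleens alone, but only P4ha2 without PyMT spleen 2. Only P3h3 was called against bone marrow alone. P4hb, the partner subunit of P4ha1, read 12.52 to 12.73 in PyMT BrM, 11.58 to 11.81 in EO771 BrM and 11.47 to 11.87 in spleen and bone marrow (0.62, adjusted p = 0.0489). In the PyMT model it was called higher (0.92, SE 0.17, adjusted p = 0.0033), in the EO771 model it differed by 0.02 (adjusted p = 0.985), and the difference between the models was 0.90 (SE 0.27, adjusted p = 0.247). Of 12 endothelial and fibroblast genes 3 were called higher (Pdgfra, Dcn and Sparc), against 3.8% of all probes. The mean list level was 4.82 to 5.63 in BrM and 4.23 to 5.06 elsewhere. The part of endothelial and fibroblast RNA in the collagen enzymes was not tested.

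The pentose phosphate pathway, which draws off glucose 6-phosphate, had 0 called higher and 3 lower of 6 measured, with or without PyMT spleen 2. Over all probes 3.12% were called lower, or 2.88% without that array. The 3 genes were Tkt (-1.46, SE 0.20, adjusted p = 0.0001), Rpia (-1.17, SE 0.24, adjusted p = 0.0035) and Taldo1 (-1.02, SE 0.22, adjusted p = 0.0048). They encode the transketolase, ribose phosphate isomerase and transaldolase of the non-oxidative arm of the pathway. All 3 were called lower against bone marrow alone (3.91% of probes lower). Against spleens alone only Tkt was (-1.31, adjusted p = 0.0024), also without PyMT spleen 2 (-1.22, adjusted p = 0.0045). Rpia and Taldo1 had adjusted p of 0.0327 and 0.0495 against all spleens. The mean level of the list was 8.18 to 8.59 in BrM and 8.68 to 9.57 in spleen and bone marrow, without overlap. Pgd, at 3.05 in BrM and 2.92 elsewhere, lay below the array median of 4.06. Taldo1 averaged 13.58 in bone marrow, 12.93 in spleens and 12.15 in BrM. The part of neutrophil content in the pentose phosphate differences was not tested. Of 9 genes for the entry of pyruvate into mitochondria, 0 were called, against 6.92% of all probes in either direction. In both models Pfkp, Hif1a and Slc2a1 were called higher and Adpgk and Tkt lower, each against its own controls.

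**Figure D4:**
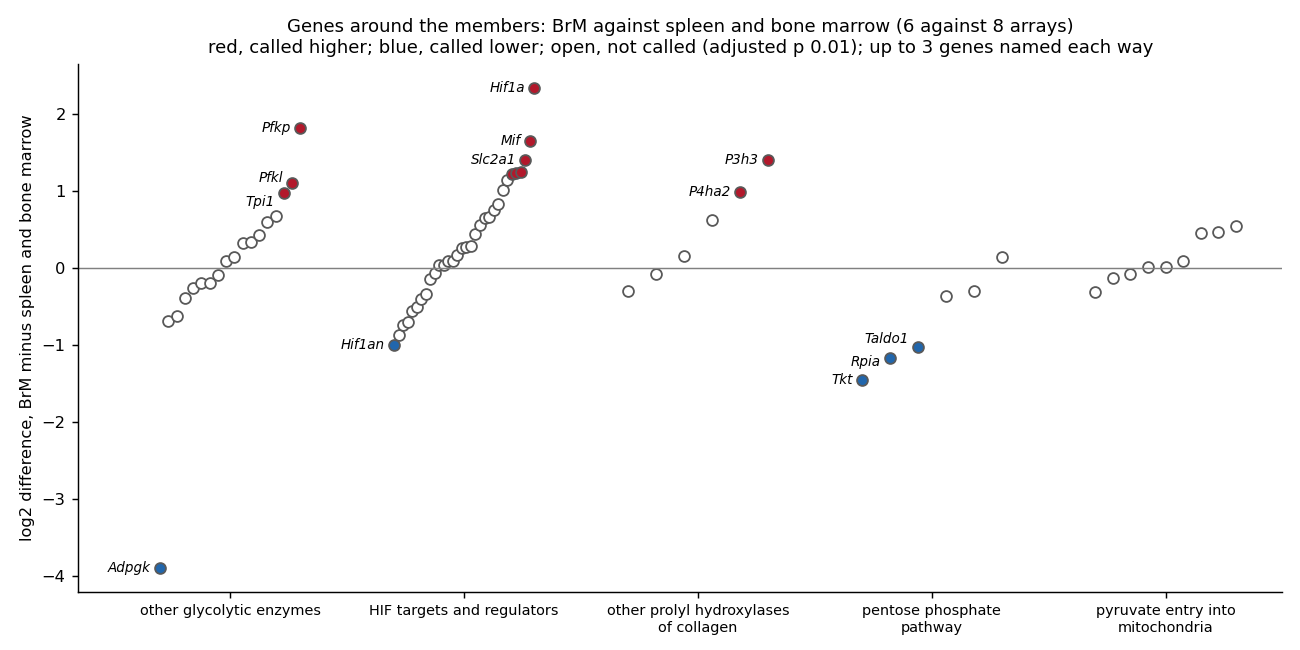
Log2 difference of BrM from spleen and bone marrow (vertical axis) for every measured gene of 5 lists; each point is a gene, and up to 3 called genes each way are named. Of 18 other glycolytic enzymes 3 lie in red and 1 in blue, of 32 HIF genes 6 and 1, and 3 of 6 pentose phosphate genes are blue. Over all probes 3.8% were called higher and 3.12% lower.

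The patterns of the members over the 14 arrays fell apart by gene. Gapdh correlated with Ldha at Pearson r of 0.928 and with Aldoa at 0.926, and Hk1 with Pgk1 at 0.861, while P4ha1 correlated with Aldoc at 0.705 and with Hk3 at -0.494. Among 12088 genes above the median, the patterns most like that of P4ha1 were Exoc6b (0.981), Rnase4 (0.966), Cebpg (0.965) and Slc36a1 (0.961), and those most like Hk3 were Psd4 (0.972), Dgkh (0.952), Cd52 (0.949) and Chst12 (0.948). These are descriptions over arrays that fall into tissue clusters.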

How the data were processed

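RNA of CD11b+GFP+ cells was hybridised to Illumina MouseWG-6 v2 bead arrays (14 arrays). The deposited values are log2 signals that the authors had normalized. Sorted values differed by at most 0.00192 between arrays, as after quantile normalization. GenomeStudio 2011.1 and limma are named in the submitters' processing notes, and the background correction is not given in the sources used here. Of 45281 probes, 34885 had 1 gene symbol, 18 several and 10378 none. The number of arrays limits the precision.

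Differences were fitted with limma 3.58.1 in R 4.3.3 (lmFit, eBayes, two-sided, Benjamini-Hochberg over all probes, called under 0.01) on the values as deposited, over 2 groups, 4 groups (each model's BrM and controls) or 6 conditions. The step was tested on simulated data. There a log2 change of 1 was called in 36% of changed probes pooled, 22% in PyMT and 6% in EO771. A change of 2 was called in 92%, 66% and 50%. A gene that was not called may therefore still differ. A gene was represented by its brightest probe. Genes named are all members, every called gene of the glycolysis list, the 3 largest called changes each way of the other lists, and the 4 genes of most similar pattern for Hk3 and P4ha1. Genes outside this rule (markers, Car9, Car12, Plod1, uncalled hypoxia genes, P4hb, Pgd) were chosen after their values were seen. The members and lists were chosen with earlier results of these data known. Codes in the sample titles link BrM and spleen of 3 PyMT mice, 1 of them with its bone marrow, and naïve spleen 1 with both naïve bone marrow arrays. The 3 BrM and spleen pairs had deviations from group means that correlated at -0.055 to 0.010. Alternatives covered scaling, filtering, variance models, blocks, control tissue and leaving out each array.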

Additional observations from a re-analysis of the deposited data

Results flagged for a closer look

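Of 48 sets of 4 to 8 arrays examined gene by gene, 2 had 1 array far from the rest by Dixon's criterion, which chance alone meets in about 1 set in 20. Hk3 was 9.05 in PyMT BrM 1, and the nearest of the other BrM arrays was at 10.10, a gap of 0.733 of the whole range. Ldha was 12.80 in PyMT spleen 2, and the next spleen array was at 11.86, a gap of 0.716 of the range. No member differed between the PyMT and EO771 comparisons at the threshold.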

How the results depend on the processing

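P4ha1 and Aldoc stayed called in the pooled comparison without any 1 array, and the count stayed at 2 there and in the PyMT comparison. Leaving out 1 array at a time gave counts of 0 to 1 for the EO771 comparison, for PyMT BrM minus EO771 BrM and for EO771 BrM minus naïve bone marrow, and 1 to 2 for PyMT BrM minus PyMT spleen. Differences near 0 had no settled sign. Over the same omissions Hk1 ranged from -0.24 to 0.18 pooled and from -0.83 to 0.14 in PyMT, and Pgk1 from -0.027 to 0.66 in PyMT. The difference between models ranged from -0.77 to 0.035 for Aldoa, -0.48 to 0.21 for Pgk1, -0.13 to 0.27 for Ldha, -0.39 to 0.24 for Gapdh and -0.31 to 0.085 for P4ha1. Pooled Hk1 turned positive with array weights (0.028), the mean of all probes (0.21), naïve bone marrow averaged to 1 sample (0.092), 6 conditions with equal weight (0.0300), spleens alone (0.43) and spleens without PyMT spleen 2 (0.90), where Hk3 was 0.059. Against bone marrow alone Pgk1 was -0.57 and Ldha -0.062. In PyMT, Hk1 was 0.027 with the mean of probes and Aldoa -0.0053 centred on reference genes. The Ldha difference between models was -0.069 centred, -0.057 by cyclic loess and -0.086 with naïve bone marrow averaged, and array weights gave 0.051 for Pgk1 and 0.068 for Gapdh.

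Counts of called members moved as follows. EO771 BrM minus naïve bone marrow gave 0 in place of 1 when centred or with naïve bone marrow averaged. PyMT BrM minus EO771 BrM and EO771 BrM minus naïve spleen gave 1 in place of 0 with array weights and at an adjusted p under 0.05. The mean of probes gave 1 in place of 2 for PyMT and for PyMT BrM minus PyMT spleen. The cause was not tested.

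The number in the sample titles, which differs from the mouse code, was tried as a replicate block. Deviations of same-numbered PyMT BrM and spleen arrays correlated at -0.06 to -0.03. Among these pairs PyMT BrM 2 and PyMT spleen 2 also carried 1 mouse code, and the others carried different codes. What the number stands for is not given. With this block the count was 1 for the pooled comparison (Aldoc 1.96, adjusted p = 0.013), 1 for PyMT (P4ha1 1.57, adjusted p = 0.0153), 0 for EO771 (P4ha1 1.81, adjusted p = 0.0142), 1 for PyMT BrM minus PyMT spleen and 0 for EO771 BrM minus naïve bone marrow, and pooled Hk1 was 0.16. Pairing by mouse code, as a random block, changed no count. The contrasts without PyMT spleen 2 in which spleens stand alone were chosen after seeing the data.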
